A study of Mus musculus with 14 samples.

Results

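The 10 genes described here encode transcription factors and early-response proteins of the AP-1 and immediate early class: Fos, Fosb, Fosl2, Jun, Junb, Jund, Atf3, Egr1, Ier2 and Klf6. They were taken by name, and H3K4me3 peaks within 1 kb of each annotated gene start were collected from 7 peak lists. Positions are those of the GRCm38 build, and a gene's start is the outermost one RefSeq gives it. All 10 were placed among 21441 protein-coding genes with a known start, and 6 of the 10 had such a peak in all 7 lists.

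AP-1 is a dimer of basic leucine zipper proteins. Jun proteins pair with each other or with Fos proteins, and ATF-family proteins can join either. Immediate early genes are short genes that are transcribed within minutes of a growth factor, cytokine or stress signal without new protein synthesis, and in blood stem and progenitor cells AP-1 genes are known for their link to stress, activation and myeloid output. H3K4me3, trimethylation of lysine 4 on histone H3, marks the nucleosomes around active or poised gene starts, and broad H3K4me3 domains often lie over genes that define a cell's identity.

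The libraries came from Lin-Sca1+cKit+ (LSK) bone marrow cells, a sorted population of haematopoietic stem and progenitor cells, of male C57BL/6J mice bought at 3-4 wk of age and then fed for 16-20 wk. HFD-LSK cells came from mice on a high-fat diet with 60% of kcal from fat, and LFD-LSK cells from mice on a low-fat diet with 10%. CUT&Tag, in which a tethered transposase cuts the DNA beside an antibody-bound mark, gave 3 HFD-LSK and 4 LFD-LSK lists for H3K4me3, while the 7 IgG libraries have no list of their own and were not analysed here. The labels do not say whether the libraries came from separate mice, so each p-value measures only the spread between these libraries, which may be technical.

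The lists held 9186, 13094 and 11977 peaks for HFD-LSK replicates 1 to 3, and 7447, 10572, 10352 and 6921 peaks for LFD-LSK replicates 1 to 4. Between 70.9% and 82.7% of the peaks in a list lay within 1 kb of a protein-coding start. The files give no total read count, so the depth of a library is unknown, and the weakest peak of a list rested on 4 to 21 fragments at its summit. HFD-LSK replicate 3 stood apart, with a median of 15 fragments at a summit against 19 to 48 in the other lists. Its median local background, in scaled control fragments, was 1 against 0.0201 to 0.114. What this did to the fold ranks of that list was not tested. Among genes that mark LSK cells, Kit, Cd34, Meis1 and Gata2 were called in all 7 lists, but Ly6a, which encodes the Sca1 antigen used in the sort, was called in 0 lists, and no list held a peak in the 471676 bp around its start. Of the markers of T, B, myeloid and non-blood cells, 11 were called in none of the lists, and Epcam was called in 4. Several of the 11 lay in long stretches without a peak in any list. Ly6g lay in the same 471676 bp, Cd3e in 301991 bp with 10 coding starts and Adgre1 in 1731627 bp with 4. Nothing was read from these absences about the purity of the sort.

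RefSeq promoter sequences of the GRCm38.p6 build were held for 8 of the 10 genes, while Ier2 and Egr1 were named only. The 250 bases before the start are shown 5′ to 3′ on the coding strand for the genes on which the results below turn: Fos, the founding Fos gene, Fosl2, whose fold rank differed most between the diets among the 10, Jun, whose domain was the widest, Jund, whose domain lay away from its start, and Klf6, which shares a motif with Jun. Capitals mark matches to TGACNTCA, to TGACG or to TATAAA on either strand.

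Fos: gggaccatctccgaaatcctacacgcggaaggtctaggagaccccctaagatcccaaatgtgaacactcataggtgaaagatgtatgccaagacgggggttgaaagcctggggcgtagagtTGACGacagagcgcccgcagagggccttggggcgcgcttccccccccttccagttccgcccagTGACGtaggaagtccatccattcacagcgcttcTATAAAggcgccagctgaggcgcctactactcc
Fosl2: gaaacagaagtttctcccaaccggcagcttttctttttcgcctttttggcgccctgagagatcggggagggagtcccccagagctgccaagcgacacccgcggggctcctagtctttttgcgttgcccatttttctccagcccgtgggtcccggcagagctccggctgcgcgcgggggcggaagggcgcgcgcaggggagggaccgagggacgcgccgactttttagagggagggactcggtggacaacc
Jun: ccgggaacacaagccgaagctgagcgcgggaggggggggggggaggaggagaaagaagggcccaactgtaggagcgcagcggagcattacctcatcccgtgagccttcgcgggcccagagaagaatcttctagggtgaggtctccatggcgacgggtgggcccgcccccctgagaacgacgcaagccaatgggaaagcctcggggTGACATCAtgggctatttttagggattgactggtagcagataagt
Jund: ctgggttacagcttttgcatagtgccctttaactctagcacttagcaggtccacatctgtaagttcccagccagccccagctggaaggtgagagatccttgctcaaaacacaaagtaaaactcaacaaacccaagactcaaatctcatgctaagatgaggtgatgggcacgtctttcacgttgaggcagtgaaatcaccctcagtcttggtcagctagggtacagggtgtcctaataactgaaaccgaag
Klf6: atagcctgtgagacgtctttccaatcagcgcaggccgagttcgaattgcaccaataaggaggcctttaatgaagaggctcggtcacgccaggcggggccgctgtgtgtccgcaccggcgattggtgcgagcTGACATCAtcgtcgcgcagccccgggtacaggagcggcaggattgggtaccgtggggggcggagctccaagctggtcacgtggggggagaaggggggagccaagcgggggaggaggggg

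The Fos window spans chr12:85473640-85473889, plus strand. It held TGACG, the core of the cAMP response element, at 129 and 66 bases before the start, and TATAAA at 33 bases before it. The Jun window, chr4:95052223-95052472 on the minus strand, and the Klf6 window, chr13:5861239-5861488 on the plus strand, both held TGACATCA, a form of the 8-base element that Jun and ATF dimers can bind. It began 45 bases before the Jun start and 119 bases before the Klf6 start. The Fosl2 window, chr5:32136222-32136471, and the Jund window, chr8:70697489-70697738, both on the plus strand, held neither motif nor TATAAA. These matches are descriptions of letters in a window and not mapped binding sites.

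All motifs were searched on both strands. Among the 8 windows, 4 held TGACG, which is also part of TGACGTCA, against 18.4% of 10583 genes with a window at the start used and 30.4% of the 2002 of these genes that were called in all 7 lists. TGACNTCA, which contains TGACGTCA, was in 2 of 8 windows against 7.9% of all genes, and TATAAA was in 1 of 8 against 15.7%. The AP-1 site TGANTCA was in 0 of 8 windows, against 6.94% of all genes, and TGACGTCA, the CArG box bound by serum response factor and the EGR1 site GCGTGGGCG were also in 0 of 8. The share of all genes was 1.89% for TGACGTCA, 1.54% for the CArG box and 0.539% for the EGR1 site. Only the 250 bases before a RefSeq start were searched, so sites further away were not seen, and Egr1 and Ier2 had no window. The GENCODE starts of Fosl2, Jund and Atf3 lie 1109, 1210 and 34711 bp from the RefSeq starts searched. A count of 0 therefore does not show that these genes lack such sites. GGGCGG, the GC box, was in 6 of 8 windows against 37% of all genes and 67.2% of genes called in all 7 lists. CCAAT was in 3 of 8, with 4 copies before Klf6, against 37.4% of all genes.

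The members' windows were GC-rich, with a median of 64.6% G and C against 52.8% for all genes and 62.8% for genes called in all 7 lists. The ratio of observed to expected CpG had a median of 0.733, 0.431 and 0.808 in the same 3 sets. Jund stood apart from the other members, since its window held 47.6% G and C with a CpG ratio of 0.213, while the other 7 lay between 58.4% and 68.8% and between 0.66 and 0.919. The Fosb window belongs to a start 73 bp from the one used for the peaks.

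Fos, Jun, Atf3, Egr1, Ier2 and Klf6 were called in all 7 lists, which 20.2% of all protein-coding starts were. That share counts 10444 genes called in no list, and of the 10997 starts called in any list it was 39.4%. Fosl2 and Junb were called in 6 lists and missed LFD-LSK replicate 4. Fosb was called in 5 lists and missed LFD-LSK replicates 1 and 4. Jund was also called in 5 and missed HFD-LSK replicate 3 and LFD-LSK replicate 1. Every member was therefore called in at least 5 lists, as were 38.1% of all coding genes and 74.4% of those called in any list. LFD-LSK replicate 4, which 3 members missed, was the shortest list. The count of members called in all 7 lists fell to 1, Jun, with peaks of a -log10 q of at least 5, and to 3 with peaks that overlap the start itself or with all lists reduced to the same number of peaks. The share of all coding genes fell to 11.8%, 10.8% and 9.05% in the same order.

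Some of the missing calls lay just outside the window. In HFD-LSK replicate 3, the nearest peak to Jund began 1330 bp downstream of the start and ran to 2553 bp, inside the gene. In LFD-LSK replicate 1, the nearest peak to Fosb ran from 1364 to 1699 bp downstream. In LFD-LSK replicate 4, a peak of 222 bp lay between 2127 and 2348 bp downstream of the Junb start, past the end of the gene. The other 3 missing calls had no peak close by. The nearest lay 23979 bp from the Jund start in LFD-LSK replicate 1, 37545 bp from the Fosb start in LFD-LSK replicate 4 and 438032 bp from the Fosl2 start in the same list. Fisher's exact test of the calls, two-sided, gave p = 0.429 for Fosb (3 of 3 HFD-LSK and 2 of 4 LFD-LSK lists) and p = 1 for the other 9. A gene called in at least 5 lists, as every member was, cannot reach p under 0.05 in this test. The test therefore cannot decide whether the members' calls differed between the diets. Of 10997 coding starts called in any list, 0.3% were called in every HFD-LSK list and no LFD-LSK list or the reverse. In such bulk lists, fewer cells carrying the mark and less of the mark per cell cannot be told apart.

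**Figure D1:**
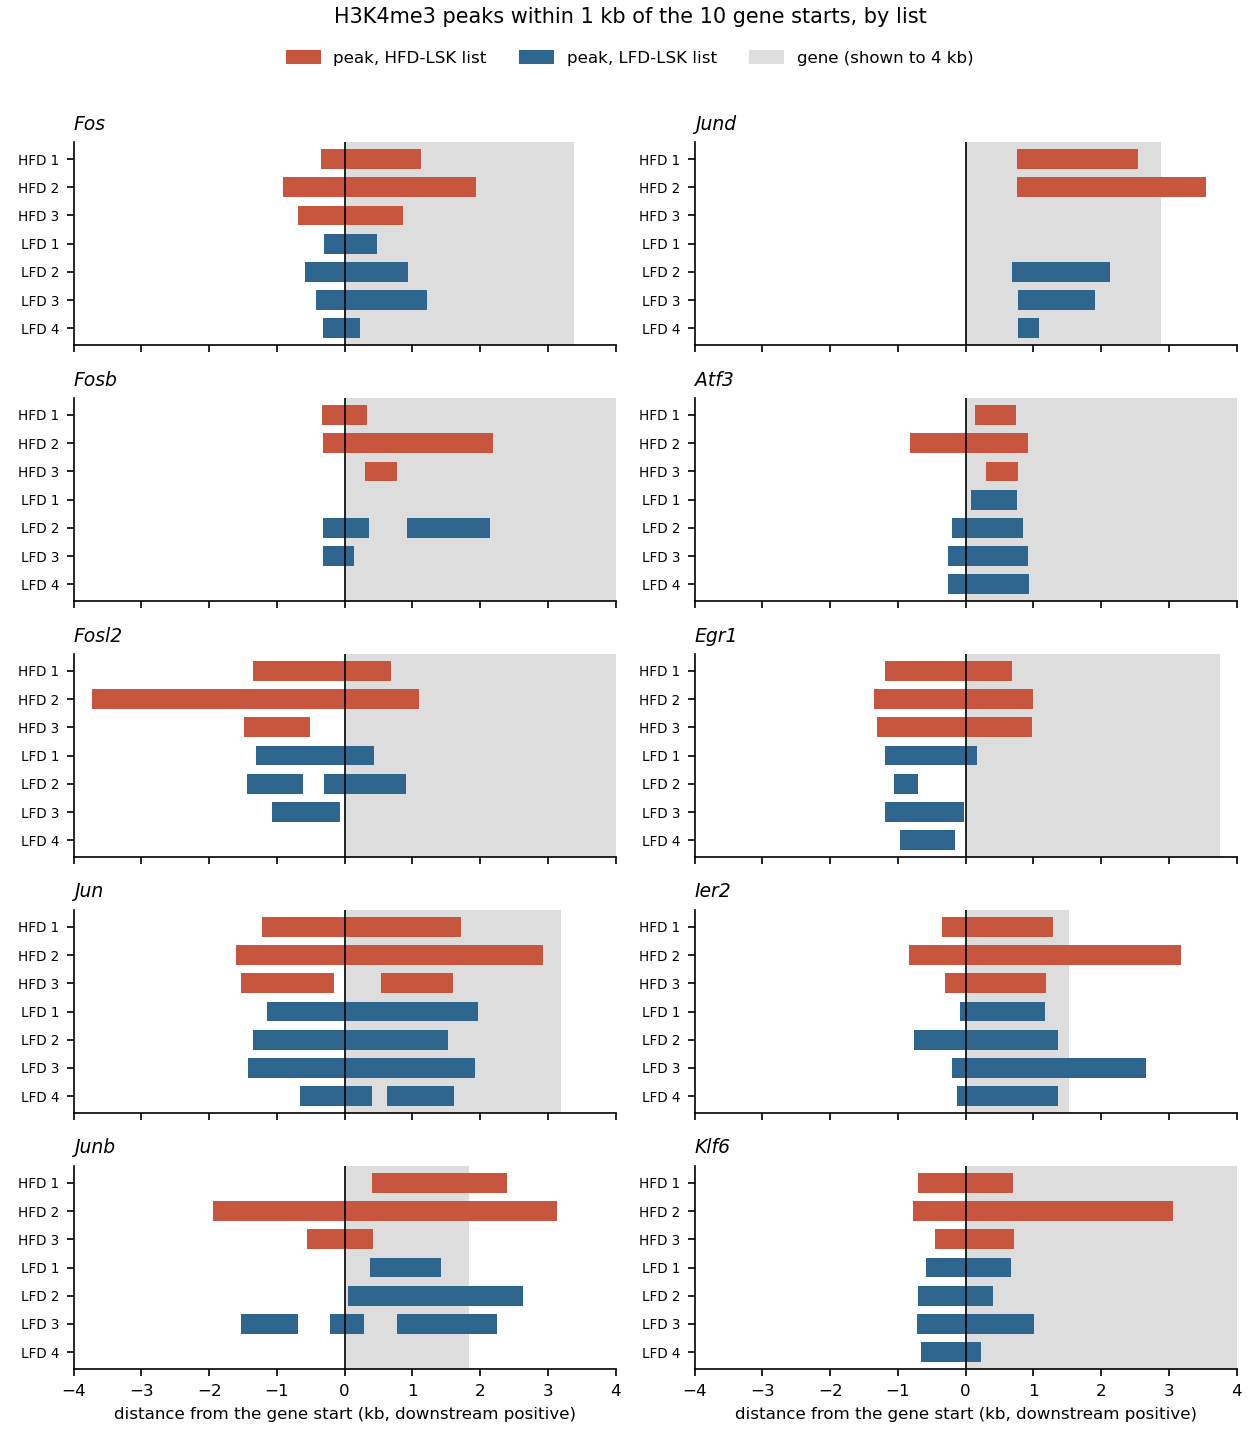
Peaks within 1 kb of each gene start in the 7 lists, drawn to scale against the distance from the start in kb, with downstream to the right and the gene shaded in grey up to 4 kb. Jund peaks all begin downstream of the start, and Jun peaks lie on both sides of it in every list. At Egr1 the 3 HFD-LSK peaks reach further downstream than the 4 LFD-LSK peaks.

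Signal strength was read as the fold rank: the fold enrichment at a peak's summit over the local background, ranked within its own list and given as a percent of that list, so that a value near 0 is among the strongest peaks. Where a gene had several peaks, the strongest stood for it. The exact permutation test, two-sided, compared the 3 HFD-LSK with the 4 LFD-LSK values for each of the 4332 coding genes called in all 7 lists, and its smallest possible p is 0.0286. The lowest Benjamini-Hochberg adjusted p over these genes was 0.955, so no gene passed at 0.05. With so few lists, a gene could pass only if most of the genes tested reached the smallest possible p. The adjusted p-values here therefore cannot show that a single gene did not differ. At an unadjusted p under 0.05 there were 101 genes, or 2.33%.

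Of the 6 members called in all 7 lists, 0 had fold ranks that did not overlap between the diets. Over all genes, 3.3% had every HFD-LSK value nearer the top than every LFD-LSK value and 1.62% had the reverse. By their mean over the lists with a peak, the members ranked from Jun and Fosl2 near the top, at 23.2% and 24%, through Ier2 at 27.8%, Klf6 at 29.6%, Fos at 37.9%, Junb at 46.6%, Egr1 at 48.6% and Fosb at 56%, to Jund at 61.8% and Atf3 at 65.2%. Neighbours in this order differed by less than the spread of either over lists. With a missing peak placed at the end of its list, the mean of Fosl2 was 34.9%, behind Ier2 and Klf6, that of Junb was 54.2%, and those of Fosb, 68.6%, and Jund, 72.7%, lay beyond that of Atf3. The members' median rank within a list, 29.4% to 67%, stood beside 39.3% to 44.7% for all called genes. In LFD-LSK replicate 4 the members' median was 67%, and in the other 6 lists it was 29.4% to 44.6%.

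**Figure D2:**
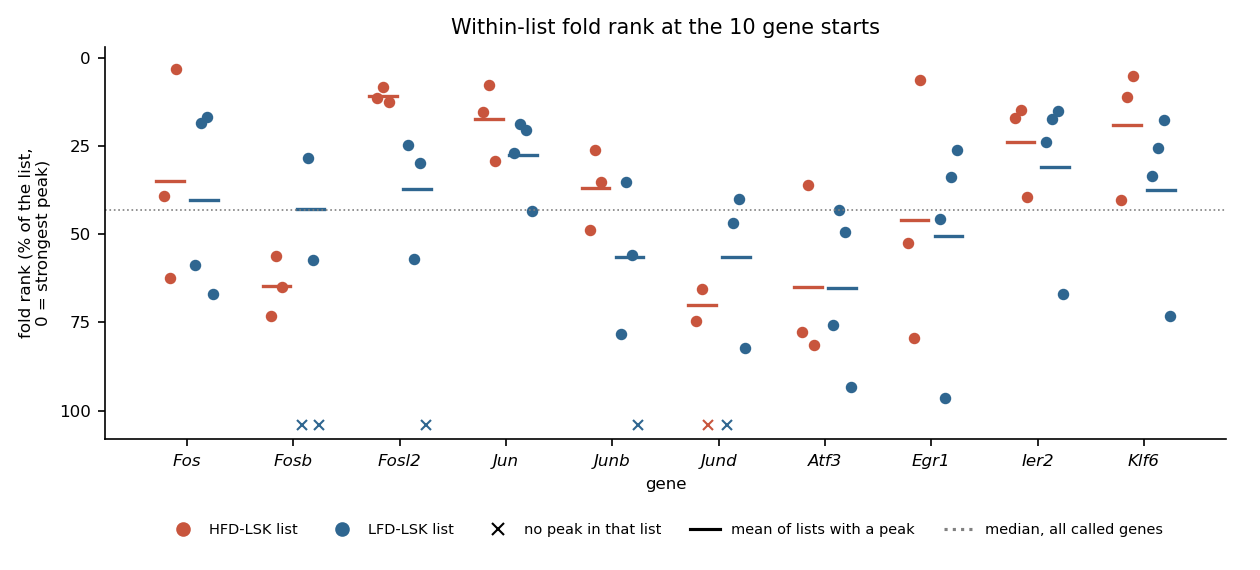
Fold rank of each gene in percent of the list, with 0 the strongest peak at the top of the axis. Points are single lists, short bars are means of the lists with a peak, crosses are lists without a peak, and the dotted line is the median over lists of the median of all called genes. Fosl2 is the gene whose 3 HFD-LSK points lie above all LFD-LSK points.

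In the Fos family, Fos (chr12:85473890-85477274, plus strand), which encodes the inducible partner of Jun, had fold ranks of 39.1%, 62.3% and 3.1% in HFD-LSK replicates 1 to 3 and of 58.7%, 18.6%, 16.7% and 67% in LFD-LSK replicates 1 to 4. Both diets ran from near the top of the list to its lower part. The means, 34.8% ± 29.8 (SD, n = 3) and 40.2% ± 26.3 (SD, n = 4), differed by -5.41 percentage points (exact permutation p = 0.8286, two-sided). The Fos domain spanned the start in every list, with its summit between 257 bp upstream and 113 bp downstream. It was 1471, 2848 and 1555 bp wide in HFD-LSK and 780, 1511, 1633 and 552 bp wide in LFD-LSK. The ranges overlapped, and the mean difference of 839 bp had an exact permutation p of 0.257. Without HFD-LSK replicate 2 the difference was 394 bp.

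Fosl2 (chr5:32136472-32157840, plus strand), which encodes the Fos-related protein Fra-2, held the narrowest set of HFD-LSK ranks. Its fold rank was 11.5%, 8.21% and 12.6% in HFD-LSK and 24.8%, 57% and 29.7% in LFD-LSK replicates 1 to 3, with no peak in replicate 4. All HFD-LSK values lay nearer the top than all LFD-LSK values. With the missing peak placed at the end of its list, the means were 10.8% and 52.9% and differed by -42.1 percentage points (exact permutation p = 0.0857, two-sided, adjusted p = 0.915 over 8179 genes called in at least 5 lists). Of these genes, 4.35% had every HFD-LSK value nearer the top in the same way. Without LFD-LSK replicate 4, Fosl2 was called in all remaining lists and its ranks did not overlap, as was so for 7.95% of genes in either direction. Ranked instead by the number of fragments at the summit, Fosl2 had 14.4%, 14.4% and 18.6% in HFD-LSK and 28.1%, 37.4% and 16.7% in LFD-LSK, so that the groups overlapped. The local background, which the peak caller counts in control fragments after scaling, moved with the fold rank in LFD-LSK replicate 2, where it was 0.566 at the Fosl2 summit against a median of 0.0566 over that list's peaks. Its part in the result was not tested.

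The Fosl2 domain lay mostly upstream of the start. It reached 1356, 3725 and 1482 bp upstream in HFD-LSK and 1315, 1442 and 1067 bp upstream in LFD-LSK replicates 1 to 3. In HFD-LSK replicate 3 it ended 512 bp before the start and in LFD-LSK replicate 3 it ended 75 bp before it, so that none of the RefSeq gene was covered in these lists. The GENCODE start lies 1109 bp upstream of the RefSeq one, by an exact match of the RefSeq window to the later GRCm39 build, and 5 of the 6 domains held it. The summit was upstream in all 6 lists, by 399 to 970 bp.

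Fosb (chr7:19302696-19310118, minus strand), a second inducible Fos gene, had fold ranks of 73.2%, 56% and 65% in HFD-LSK and of 28.5% and 57.3% in LFD-LSK replicates 2 and 3. The values of the diets overlapped. Its domain was 654, 2519 and 466 bp wide in HFD-LSK and 1907 and 462 bp wide in LFD-LSK replicates 2 and 3. A long domain thus appeared once in each diet, and in HFD-LSK replicate 3 the peak began 301 bp after the start.

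In the Jun family, Jun (chr4:95049036-95052222, minus strand), which encodes the central AP-1 subunit, had the widest domain of the members on average, 3045 bp. Its fold rank was 15.5%, 7.66% and 29.4% in HFD-LSK and 27%, 18.9%, 20.6% and 43.4% in LFD-LSK. These values overlapped (difference -9.94 percentage points, exact permutation p = 0.314, two-sided). Their SD over 7 lists, 11.4 percentage points, was small beside that of other genes: 9% of the genes called in all 7 lists had a smaller one, and the median SD was 21.6. Without HFD-LSK replicate 3 the ranks of Jun no longer overlapped, with a difference of -15.9 percentage points, as was so for 13.05% of genes in either direction. Without LFD-LSK replicate 4 the difference was -4.63.

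The Jun domain was 2947, 4531 and 2437 bp wide in HFD-LSK and 3110, 2885, 3354 and 2049 bp in LFD-LSK. Each list thus placed it among its widest gene domains, between the 98.5th and the 99.8th width percentile, while the diets overlapped (difference 456 bp, exact permutation p = 0.571). The domain reached 655 to 1604 bp upstream and 1524 to 2926 bp downstream of the start. It also held the start of Junos, a long noncoding RNA gene transcribed away from Jun, so that the signal of the 2 starts cannot be told apart. Jun was the single member with another annotated start inside its domain, and the single one with no further peak within 50 kb in any list.

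Junb (chr8:84976909-84978748, minus strand), which encodes a Jun protein that restrains proliferation in many settings, had fold ranks of 48.9%, 26.2% and 35.3% in HFD-LSK and of 78.2%, 35.3% and 55.9% in LFD-LSK replicates 1 to 3. The groups overlapped. With the missing list last, the difference was -30.5 percentage points (exact permutation p = 0.143, two-sided, adjusted p = 0.915). The Junb domain was 1993, 5071 and 964 bp wide in HFD-LSK and 1050, 2585 and 2818 bp in LFD-LSK. It ran past the end of the 1840-bp gene in 4 of 6 lists, by 409 to 1292 bp.

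Jund (chr8:70697739-70700616, plus strand), whose product is the most constitutive of the Jun proteins, had fold ranks of 74.7% and 65.4% in the 2 HFD-LSK lists with a peak and of 46.7%, 40.2% and 82.1% in LFD-LSK replicates 2 to 4, so that the diets overlapped. Its domain began 689 to 775 bp downstream of the RefSeq start in all 5 lists, and its summit lay 947 to 1528 bp downstream. The Jund gene was 2878 bp long in RefSeq and 1667 bp in the GENCODE annotation of GRCm39. By an exact match of the RefSeq window to that build, the GENCODE start lay 1210 bp downstream of the RefSeq one, and 4 of the 5 domains held it. Every Jund domain thus lay away from the RefSeq start, whose window is the CpG-poor one printed above. Domain widths were 1790 and 2790 bp in HFD-LSK and 1436, 1146 and 301 bp in LFD-LSK. They were not tested over these 5 lists. Among genes called in all 7 lists, 93.1% had a wider mean domain in HFD-LSK.

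Atf3 (chr1:191170296-191183333, minus strand), which encodes a stress-induced ATF-family partner of Jun, had the mean rank farthest from the top over the lists with a peak. Its fold rank was 77.7%, 36% and 81.4% in HFD-LSK and 75.7%, 43.1%, 49.3% and 93.2% in LFD-LSK, with means of 65% ± 25.2 (SD, n = 3) and 65.3% ± 23.4 (SD, n = 4) that differed by -0.255 percentage points (exact permutation p = 1, two-sided). Its domain was 617, 1744 and 468 bp wide in HFD-LSK and 686, 1049, 1192 and 1202 bp in LFD-LSK. It was the single member of the 6 whose mean width was smaller in HFD-LSK, by -89.2 bp (exact permutation p = 0.743). Without HFD-LSK replicate 2 its widths no longer overlapped, with a difference of -489.8 bp, as was so for 8.4% of genes in either direction. All these values are for the RefSeq start of Atf3. By an exact match of the RefSeq window to GRCm39, the outermost GENCODE start lay 34711 bp upstream of it, and 0 of the 7 domains held that start.

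Egr1 (chr18:34861207-34864956, plus strand), which encodes a zinc finger factor that serum and stress signals induce and that is known for holding blood stem cells in place and at rest, was the one of the 6 members called in all 7 lists whose domain widths did not overlap between the diets. Its domain was 1879, 2353 and 2285 bp wide in HFD-LSK and 1346, 354, 1153 and 812 bp wide in LFD-LSK. All HFD-LSK values lay above all LFD-LSK values. The means were 2172 bp ± 256 (SD, n = 3) and 916 bp ± 435 (SD, n = 4), and their difference of 1256 bp reached the smallest p the design allows (exact permutation p = 0.0286, two-sided, adjusted p = 0.716 over 4332 genes). Over all genes, 6.81% had domains wider in every HFD-LSK list and 0% had the reverse, so 1 of 6 members was read beside that share.

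The upstream edge of the Egr1 domain lay 1194, 1360 and 1304 bp before the start in HFD-LSK and 1184, 1056, 1184 and 974 bp before it in LFD-LSK. The values 1194 and 1184 bp lay close together. Both edges are ends of the domain whose width is compared above, and no share of all genes was computed for edges. The downstream edge lay 684, 992 and 980 bp after the start in HFD-LSK. In LFD-LSK replicate 1 it lay 161 bp after the start, and in replicates 2 to 4 it lay 703, 32 and 163 bp before it. The domain thus covered 18.3% to 26.5% of the RefSeq gene in HFD-LSK and 4.32%, 0%, 0% and 0% of it in LFD-LSK. These shares depend on the annotation, since Egr1 is 3750 bp long in RefSeq and 5174 bp in GENCODE. With no RefSeq window held for Egr1, its GENCODE start was not placed beside the domains. Whether the LFD-LSK domains lie inside the longer GENCODE gene was therefore not determined. The summit was upstream of the RefSeq start in all 7 lists, by 317 to 1100 bp.

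**Figure D3:**
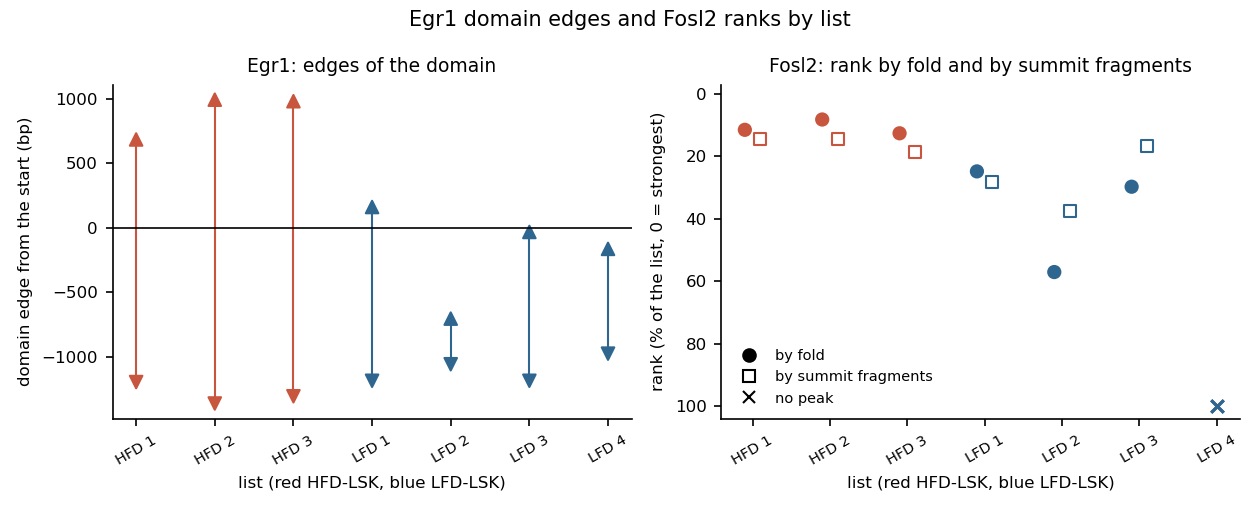
Left, upstream and downstream edge of the Egr1 domain in bp from the gene start in each list. Right, Fosl2 rank in percent of the list by fold (filled) and by summit fragments (open), with a cross for the list without a peak. The HFD-LSK edges of Egr1 end 684 to 992 bp inside the RefSeq gene, and the separation of Fosl2 by fold is not seen by fragments.

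Domains of most genes were wider in HFD-LSK. The mean width was greater in HFD-LSK for 93.1% of the 4332 genes, with a median difference of 275 bp, and 2 of the 3 HFD-LSK lists were the longest of the 7. How much of the Egr1 width difference moved with list size was not tested, but the width percentile, which ranks a domain among the gene domains of its own list, was 93.1, 88.7 and 97.9 in HFD-LSK and 87.1, 2.49, 68.1 and 73.4 in LFD-LSK. These did not overlap either, although 88.7 in HFD-LSK and 87.1 in LFD-LSK lay close together (exact permutation p = 0.0857, two-sided, adjusted p = 1). Over all genes, 2.7% had higher percentiles in every HFD-LSK list and 2.68% had lower ones. Egr1 was not called in all 7 lists with a -log10 q of at least 5, with peaks overlapping the start, or with lists reduced to one size, so the width comparison could not be made there.

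The fold rank of Egr1 was the most variable of the 6, with an SD of 30.9 percentage points that was larger than in 90.5% of genes. It was 52.4%, 79.3% and 6.38% in HFD-LSK and 45.6%, 96.3%, 33.7% and 26.2% in LFD-LSK, and the diets overlapped throughout (difference -4.41 percentage points, exact permutation p = 0.914, two-sided). In HFD-LSK replicate 2 the summit held 69 fragments, a rank of 17.1% by fragments, over a local background of 3, which was far above that list's median of 0.114. In LFD-LSK replicate 2 it held 32 fragments, a rank of 51.8%, over a background of 1.41 against a median of 0.0566. The background was also high in LFD-LSK replicate 3, at 0.532 against a median of 0.0532, where the fold rank was 33.7%. Its part in the fold ranks was not tested.

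Ier2 (chr8:84661331-84662852, minus strand), which encodes a small nuclear protein induced with the AP-1 genes, had fold ranks of 17.1%, 14.8% and 39.4% in HFD-LSK and of 24%, 17.3%, 15.1% and 67% in LFD-LSK. In 5 of 7 lists it ranked at 24% or nearer the top, and the diets overlapped (difference -7.08 percentage points, exact permutation p = 0.771, two-sided). Its domain was 1635, 4018 and 1497 bp wide in HFD-LSK and 1267, 2127, 2874 and 1486 bp in LFD-LSK. The widths overlapped, with a difference of 445 bp (exact permutation p = 0.571).

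Klf6 (chr13:5861489-5870393, plus strand), which encodes a zinc finger factor induced by stress and cytokines, had fold ranks of 40.3%, 11.2% and 5.34% in HFD-LSK and of 33.6%, 25.6%, 17.7% and 73.1% in LFD-LSK. The means were 18.9% and 37.5%, and the difference of -18.5 percentage points was smaller than the spread within LFD-LSK, with an SD of 24.6 (exact permutation p = 0.371, two-sided). Without HFD-LSK replicate 1 the groups no longer overlapped, at -29.2 percentage points, as was so for 17.8% of genes in either direction, and without LFD-LSK replicate 4 the difference was -6.67. The domain was 1401, 3828 and 1178 bp wide in HFD-LSK and 1259, 1113, 1733 and 881 bp in LFD-LSK. The difference of 889 bp (exact permutation p = 0.286) fell to 43 bp without HFD-LSK replicate 2.

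Domains were long relative to the RefSeq genes. The mean width was 140% of the gene for Ier2, 131% for Junb and 95.5% for Jun. It was 51.9% for Jund, 43.7% for Fos and 38.8% for Egr1, and 18.3%, 16.2%, 9.84% and 7.62% for Klf6, Fosb, Fosl2 and Atf3. Mean domains at least as long as the gene were thus found for 2 of 10 members, against 0.846% of the 10997 genes called in any list. With GENCODE lengths it was 1 of 10, Ier2, against 0.448% of the 10708 of these genes with such a length. The mean width was then 56.8% of the gene for Junb, 89.5% for Jund and 2.08% for Atf3, 28.1% for Egr1 and within 0.5 percentage points of the RefSeq value for the other 6. The median over genes called in all 7 lists was 4.17%.

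The members are short, with a median length of 3568 bp against 25680 bp for genes called in all 7 lists, and 6 of them are under 4000 bp. Among 344 genes of that length called in all 7 lists, the median of mean width to gene length was 45.9%. In bp, the members' domains were also wider than most. The median width percentile of the called members ran from 70.7 to 96.5 over the 7 lists, where the middle gene of each list lies at the 50th by construction. Ier2 had the most complete cover, with 77.3% to 100% of the 1522-bp gene inside peaks, and it was covered in full in HFD-LSK replicate 2 and LFD-LSK replicate 3. Over the members called in a list, the median share of the gene covered was 7.21% to 45.8%, against 1.49% to 3.65% for all called genes.

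**Figure D4:**
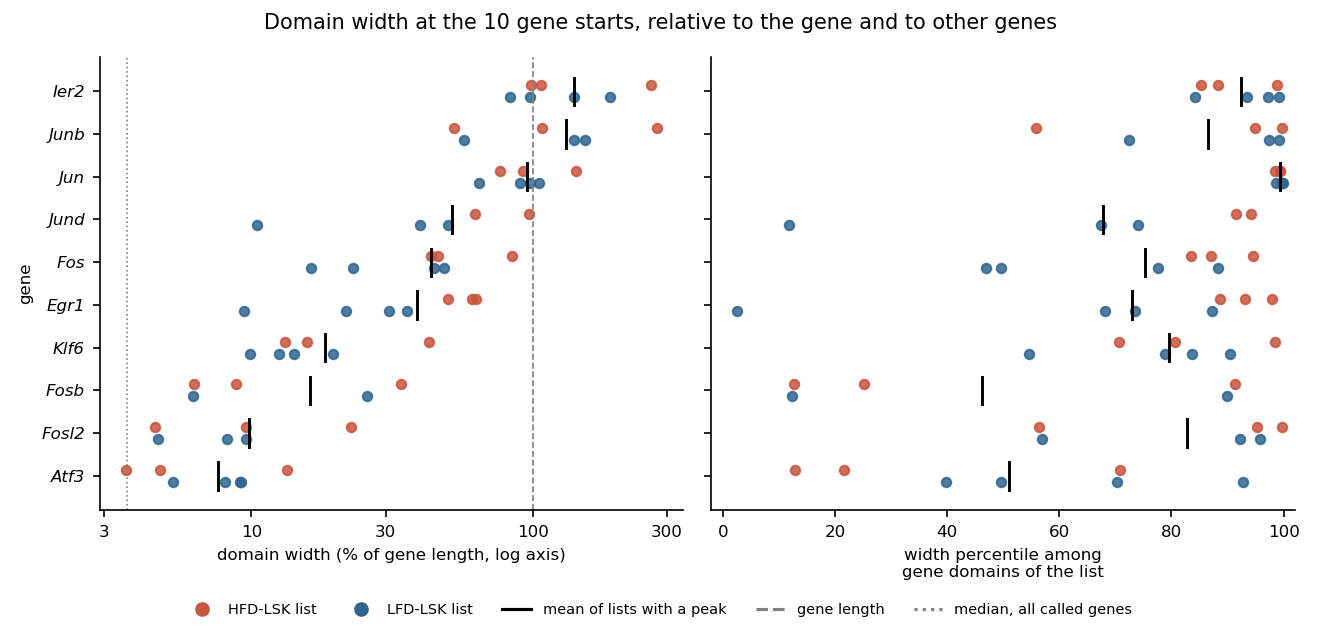
Left, domain width in percent of gene length on a log axis; right, the percentile of that width among gene domains of the same list. Points are single lists and black bars are means of the lists with a peak. The dashed line is the gene's own length and the dotted line the median over lists of the median of all called genes. Jun lies above the 98th percentile in every list, and Egr1 spans the widest range of percentiles.

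Single lists stood out in width. HFD-LSK replicate 2, the longest list, held the widest domain of all 10 members, and LFD-LSK replicate 4 held the narrowest of Fos, Jun, Jund and Klf6.

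Further peaks lay within 50 kb of most members. Fos had 1 to 3 peaks beyond 1 kb in 6 lists and 0 in LFD-LSK replicate 1, and all of them lay away from any other annotated start. Egr1 had 1 such peak in replicates 2 and 3 of HFD-LSK and replicate 3 of LFD-LSK. Klf6 had 1, inside the gene, in HFD-LSK replicate 3 and LFD-LSK replicates 2 and 3. Atf3 had 1 peak in every list, and each lay at another gene's start. Ier2 and Junb lie among many other starts and had 6 to 9 and 4 to 10 peaks within that distance.

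Related genes were examined in lists chosen by name. Of 22 other AP-1 and basic leucine zipper genes, 7 were called in all 7 lists, or 31.8% against 20.2% of all genes, and 4 were called in none. Their median fold rank was 27% and their median width percentile 76.3, against 33.9% and 61.2 for all genes called in all 7 lists. The 4 uncalled genes were Batf2, Batf3, Atf4 and Mafg. For Atf4, the translational stress-response factor, and Mafg, a small Maf partner, no list held a peak over 536407 bp with 7 coding starts and over 137165 bp with 12 coding starts. With whole stretches empty of peaks in every list, nothing was read from them about the mark at these genes, nor at Ly6a. Atf1, a CREB-family factor, was the 1 gene of the 7 with widths that did not overlap, beside 6.81% of all genes. They were 1582, 1722 and 1435 bp in HFD-LSK and 1221, 1271, 1171 and 880 bp in LFD-LSK (exact permutation p = 0.0286, two-sided, adjusted p = 0.716).

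Of 32 other immediate early genes, 9 were called in all 7 lists, or 28.1% against 20.2% of all genes, and 5 in none. The uncalled genes were Egr2, Egr3, Sgk1, Gadd45b and Npas4. Egr2 had a peak inside the gene but beyond 1 kb in 4 lists and Sgk1 had one 109228 bp or more from its annotated start in 6 lists. The median fold rank of the 9 was 37.9% and their median width percentile 81.4. Dusp2, a phosphatase that switches off MAP kinases, Ier5 and Sik1 were wider in every HFD-LSK list, or 3 of 9 beside the 6.81% of all genes given above. Dusp2 measured 2780, 4397 and 4244 bp in HFD-LSK and 321, 2304, 1804 and 1714 bp in LFD-LSK (exact permutation p = 0.0286, two-sided, adjusted p = 0.716). The difference was 897.5 bp for Ier5 (exact permutation p = 0.0857) and 770.5 bp for Sik1 (exact permutation p = 0.0286).

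The 18 upstream regulators were serum response factor, its partners and the kinases that switch immediate early genes on. Of these, 6 were called in all 7 lists, or 33.3% against 20.2% of all genes, and 2, Srf and Map2k1, in none. Srf had a peak in all 7 lists that began 1489 to 1994 bp downstream of its annotated start. At Map2k1, no list held a peak over 101296 bp with 2 coding starts, so nothing was read from its absence either. Mapk9, which encodes the Jun kinase JNK2, ranked farther from the top in every HFD-LSK list, at 32.5%, 18.4% and 75% against 6.88%, 4.04%, 10.1% and 3.91% in LFD-LSK (exact permutation p = 0.0286, two-sided, adjusted p = 0.955). It was the single gene with fold ranks that did not overlap among the 7, 9 and 6 genes of the 3 lists called in all 7 peak lists. Over all genes, 4.92% had fold ranks that did not overlap in either direction. The 5 widest mean domains in these lists were those of Maf at 2539 bp, Dusp2 at 2509 bp, Klf10 at 2478 bp, Ier3 at 2204 bp and Trib1 at 2179 bp, all narrower than that of Jun.

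Genes most like the members were sought over 14 values, the fold rank and the width percentile in each of 7 lists. The nearest to the members' medians were Tle1 at a distance of 34.6, Dmwd at 36.6, Mgat4e and Kdm5b at 42.4 and Acvr1 at 43.8, against a median distance of 112 over genes called in all 7 lists. Mgat4e and Kdm5b had the same values because they share a peak.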

How the data were processed

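H3K4me3 CUT&Tag libraries of 3 HFD-LSK and 4 LFD-LSK samples were deposited as 1 narrowPeak list each. The submitters' processing notes name Trim Galore, Bowtie2, Picard, MACS2, bedtools, HOMER and featureCounts with GRCm38, while the published methods name GRCm39 and another peak caller. Peak positions fit GRCm38, and columns 5 to 10 have the MACS2 layout. Column 5 is a deposited score equal to 10 times the -log10 p, cut to a whole number. Column 7 is the deposited fold (a ratio) at the summit over the local background. Columns 8 and 9 are the deposited -log10 p-value and -log10 q-value, and the lowest -log10 p in any list was 5.008. Replicates were not pooled. The lists hold no counts, so a count model could not be run.

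Starts came from RefSeq (GRCm38.p6) for 21441 of 21887 protein-coding genes. The strand was taken from RefSeq for 17492 of them and from GENCODE for 3949, Egr1 and Ier2 among these. Peaks within 1 kb of a start were assigned to it, and their lengths were summed as the domain width. Fold was ranked within a list, with ties at mid rank. Fragments at a summit were recovered from fold and p-value as whole numbers within 0.02 for all peaks. Groups were compared by an exact permutation test of means and by Fisher's exact test, both two-sided, with Benjamini-Hochberg adjustment over all genes tested, in Python 3.11.15 with numpy 2.4.6, pandas 2.3.3 and scipy 1.17.1, and figures were drawn with matplotlib 3.10.9. The tests were checked on simulated data.

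The members and lists were chosen with earlier results of these data known. Genes named are all members, genes of 3 related lists that were called nowhere, did not overlap between the diets or were among the 5 widest, and the 5 genes most like the members. Alternatives were a q limit, windows of 3 kb or the start itself, lists of equal size, other ranks, joined peaks, a replicate block and leaving out each library. Ranks by fragments, the placing of uncalled lists at the end and gene lengths from GENCODE (GRCm39, matched by symbol) were added after the data were seen. The values of 1 marker gene are not reported here.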

Additional observations from a re-analysis of the deposited data

Results flagged for a closer look

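The width percentile of Jun in LFD-LSK replicate 2, 98.6, stood apart from the other 3 LFD-LSK lists, which lay between 99.6 and 99.8, with a gap of 0.849 of the group's range, above Dixon's critical value for 4 samples. It was the 1 value of this kind among 19 groups of 4 LFD-LSK values examined (fold rank, width and width percentile of the 6 members called in all 7 lists, and list size), where chance gives about 1 in 20. All 4 values are among the widest domains of their lists.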

How the results depend on the processing

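Of the 11 other settings tried for the number of members called in all 7 lists, 6 in the report, 8 gave 6 to 8. It was 1 with a -log10 q of at least 5, 3 with peaks overlapping the start and 3 with lists reduced to the size of the shortest, since fewer peaks were then counted. The number of members with mean domains at least as long as the gene stayed between 2 and 3 in 12 settings and was 1 with gene lengths from GENCODE, where Junb is longer. The number with widths that did not overlap, 1, was 0 under the same 3 settings, where Egr1 was no longer called in every list, and lay between 1 and 2 when single libraries were left out (2, with Atf3, without HFD-LSK replicate 2). The number with fold ranks that did not overlap was 0 under every other ranking and filter tried and ran from 0 to 1 with a library left out: Klf6 without HFD-LSK replicate 1, Jun without HFD-LSK replicate 3 and Fosl2 without LFD-LSK replicate 4, beside 17.8%, 13.05% and 7.95% of all genes.

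No adjusted p of a member passed 0.05 under any setting, which with all 7 lists needed most genes to reach the smallest possible p. With a library left out none could, since even the Egr1 widths, which did not overlap, gave an exact permutation p of 0.0667 or 0.1. With a library left out, the fold rank difference (HFD-LSK minus LFD-LSK, percentage points) ran from -19.1 to 10.5 for Fos, -8.43 to 14.2 for Atf3, -21 to 15.4 for Egr1 and -14.9 to 4.97 for Ier2, and with uncalled lists last from -21 to 2.79 for Fosb. The width difference ran from -157.5 to 889.5 bp for Jun, -489.8 to 148.2 bp for Atf3 and -372.5 to 888 bp for Ier2. The extremes came from leaving out HFD-LSK replicates 2 or 3, for Ier2 also LFD-LSK replicate 4, and for Fosb LFD-LSK replicates 1, 2 or 4. The width difference of Egr1 stayed between 1069 and 1403 bp, and the fold rank difference of Fosl2 between -51.5 and -26.4. Directions also turned for Atf3 with ranks by -log10 p, at 6.79, or among starts called in all lists, at 0.654, for Ier2 with lists of equal size, at 4.17, and for Fosb within 3 kb, at 0.071. The causes were not tested.

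Whether replicate numbers shared between the diets pair the libraries is not known. The published methods state that batch and paired samples were accounted for, but do not name the pairs. Deviations from the group means over 4332 genes correlated at 0.177, 0.0178 and 0.0386 for numbers 1 to 3. HFD-LSK replicates 1 and 2 correlated best with the LFD-LSK replicate of the same number. HFD-LSK replicate 3 correlated best with LFD-LSK replicate 2, at 0.0486. With the replicate block, the fold rank difference was 3.51 for Fos, 9.04 for Atf3 and 4.97 for Ier2 and kept its sign for Jun, Egr1 and Klf6, and the Egr1 width difference was 1221 bp (exact sign-flip p = 0.25, the smallest possible). List size and unknown depth limit which weak peaks could be called.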
